A study of Homo sapiens
Mus musculus with 2 samples.

Results

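Stathmin, tubulin and HMGB transcripts were followed as 10 genes, 5 mouse genes and their 5 human counterparts, of the 29259 gene identifiers found in a pair of Drop-seq libraries. The members were set by identifier and not by their counts. The mouse genes were Stmn1 (mm10_ENSMUSG00000028832), Tuba1b (mm10_ENSMUSG00000023004), Tubb5 (mm10_ENSMUSG00000001525), Hmgb1 (mm10_ENSMUSG00000066551) and Hmgb2 (mm10_ENSMUSG00000054717). The human genes were STMN1 (hg19_ENSG00000117632), TUBA1B (hg19_ENSG00000123416), TUBB (hg19_ENSG00000196230), HMGB1 (hg19_ENSG00000189403) and HMGB2 (hg19_ENSG00000164104). All 10 were present in both tables.

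Microtubules are polymers of paired alpha- and beta-tubulin subunits, and they form both the interphase cytoskeleton and the mitotic spindle. TUBA1B encodes an alpha-tubulin, and TUBB (Tubb5 in mouse) encodes the main beta-tubulin of most dividing cells. STMN1 encodes stathmin, a phosphoprotein that binds tubulin pairs and promotes the shortening of microtubules, and it is abundant in leukemia cells and other proliferating cells. HMGB1 and HMGB2 encode small abundant chromatin proteins that bind and bend DNA through HMG boxes. HMGB2 is more restricted than HMGB1 and is known for its high level in the thymus and in cycling cells.

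Both libraries were made from equal parts of 4 lymphocyte lines, namely Jurkat (human CD4+ T cells), TALL-104 (human CD8+ T cells), EL4 (mouse CD4+ T cells) and IVA12 (mouse B cells). No treatment of the lines is named beyond their culture media, which for TALL-104 held IL-2. The libraries differed in the concentration at which cells were loaded, 150 or 300 cells per µl, with 1 library at each. A count is a unique molecular identifier (UMI), which marks 1 captured mRNA end, so levels of different genes could be compared without a division by length. A barcode was taken as a cell at 1000 UMIs or more, and as human or mouse where at least 90% of its UMIs came from that species.

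Loading at 150 cells per µl gave 190 cells (87 human, 85 mouse and 18 mixed) in a total of 2398956 UMIs, and loading at 300 cells per µl gave 1124 cells (318 human, 685 mouse and 121 mixed) in 8707135 UMIs. By class, the median depth per cell lay between 6383 and 13629 UMIs at the lower concentration and between 3713.5 and 7474 UMIs at the higher one. The libraries had 1 barcode in common among all those listed and 0 among the cells. Mouse cells formed 2 classes, called mouse A (50 and 389 cells) and mouse B (35 and 296 cells). The members had no part in the clustering, but they were among the genes by which the clusters were joined into classes. The classes could not be checked against marker genes, because no table used here pairs the identifiers with symbols, and so neither is given the name of a line. Human cells were kept as 1 class for the same reason, and Jurkat and TALL-104 cannot be told apart in it. According to the paper, TALL-104 gave the fewest reads, UMIs and genes of the lines, and count thresholds excluded it more readily. The share of TALL-104 among human cells of at least 1000 UMIs was not determined.

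Most members were abundant transcripts. By summed UMIs every member ranked within the first 360 genes of its species in each class and library, except Stmn1 in mouse B at rank 1088 and rank 1930. Together they gave 0.751% and 0.689% of mouse UMIs in mouse A at 150 and 300 cells per µl, 0.371% and 0.426% in mouse B, and 1.01% and 0.944% of human UMIs in human cells. Levels are given as UMIs per 1000000 UMIs of the species (CPM) in the summed cells of a class, with exact 95% Poisson intervals. These intervals cover counting error only.

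Stathmin was the member whose level differed most between the classes. Mouse Stmn1 stood at 634 CPM (571 to 701, 380 UMIs) in mouse A at 150 cells per µl and at 511 CPM (486 to 536, 1625 UMIs) at 300 cells per µl. In mouse B it stood at 176 CPM (140 to 219, 81 UMIs) and 109 CPM (95.8 to 123, 254 UMIs). Both mouse B values lay below both mouse A values, and the intervals of the classes did not meet. Human STMN1 stood at 2963 CPM (2829 to 3102) and 1895 CPM (1821 to 1970), which placed it at rank 31 and rank 62 of all human genes.

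The alpha-tubulin gene was the most abundant member in human cells in both libraries. TUBA1B reached 3228 CPM (3088 to 3373) in the library at 150 cells per µl and 3842 CPM (3737 to 3949) in the other, rank 24 and rank 11 of human genes. Mouse Tuba1b stood at 1907 CPM (1798 to 2021) and 2368 CPM (2314 to 2422) in mouse A. In mouse B it stood at 1114 CPM (1020 to 1215) and 1586 CPM (1535 to 1638). The lower mouse A value was above the higher mouse B value.

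The beta-tubulin gene differed least between the mouse classes. Tubb5 gave 965 CPM (888 to 1047) and 1311 CPM (1272 to 1352) in mouse A, and 771 CPM (693 to 855) and 1194 CPM (1150 to 1239) in mouse B. Within each library mouse A was higher, but the mouse B value at 300 cells per µl exceeded the mouse A value at 150 cells per µl. Tubb5 was the only mouse member whose ranges over the libraries overlapped between the classes. Human TUBB gave 1465 CPM (1371 to 1563) and 1856 CPM (1783 to 1930).

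Of the HMGB genes, Hmgb2 was above Hmgb1 in both mouse classes. Hmgb2 stood at 2211 CPM (2093 to 2333) and 1756 CPM (1711 to 1803) in mouse A, and at 1051 CPM (960 to 1149) and 938 CPM (899 to 978) in mouse B. Hmgb1 stood at 1789 CPM (1683 to 1899) and 943 CPM (910 to 978) in mouse A, and at 595 CPM (527 to 670) and 429 CPM (403 to 456) in mouse B. In human cells the order differed between the libraries. HMGB1 was above HMGB2 at 150 cells per µl, with 1486 CPM (1391 to 1585) against 952 CPM (877 to 1032). At 300 cells per µl their values of 913 CPM (862 to 966) and 931 CPM (880 to 985) had overlapping intervals.

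**Figure D1:**
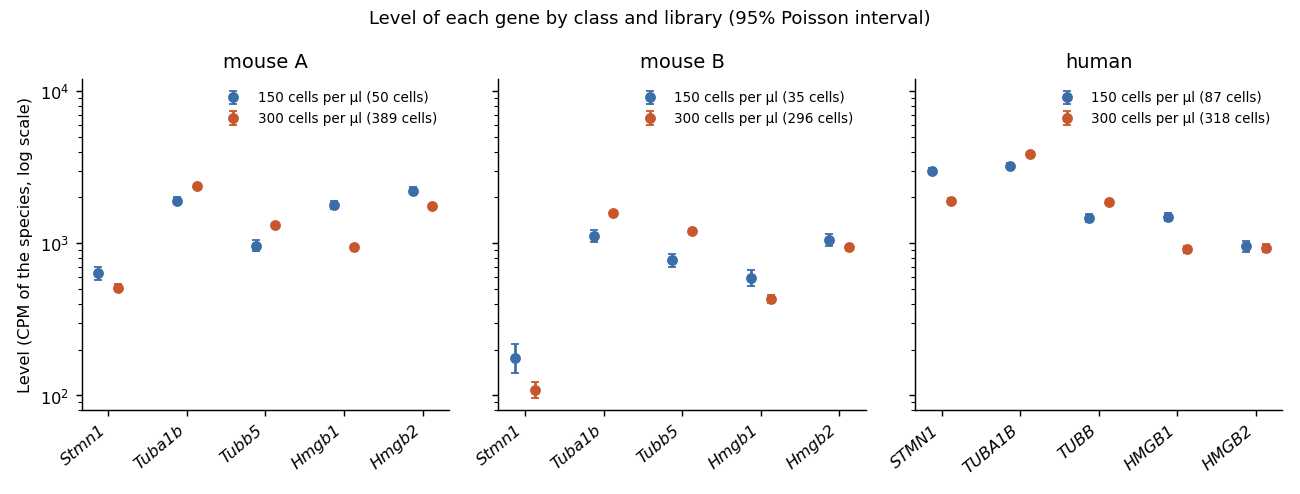
Level of each gene in CPM of its species (vertical axis, log scale) in mouse A, mouse B and human cells. Points are the summed cells of 1 library and bars the 95% Poisson interval. The tubulin points at 300 cells per µl lie above those at 150 cells per µl in every panel, and the stathmin and HMGB1 points lie below them, as with Hmgb1 in mouse A at 943 against 1789 CPM.

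The order of the members within a class followed from these values. In mouse A at 150 cells per µl it ran Hmgb2, Tuba1b, Hmgb1, Tubb5, Stmn1, with overlapping intervals for Tuba1b and Hmgb1 only. In the other library it ran Tuba1b, Hmgb2, Tubb5, Hmgb1, Stmn1, and no neighbours overlapped. In mouse B the order Tuba1b, Hmgb2, Tubb5, Hmgb1, Stmn1 held at 150 cells per µl, where the first pair overlapped, while Tubb5 passed Hmgb2 at 300 cells per µl. In human cells TUBA1B and STMN1 were neighbours with overlapping intervals at 150 cells per µl, and so were HMGB1 and TUBB. In the library at 300 cells per µl TUBA1B stood alone at the top and STMN1 overlapped with TUBB.

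Ratios between members of the same cells do not depend on how the libraries are scaled. The alpha- to beta-tubulin ratio was 1.98 (95% interval 1.79 to 2.19) and 1.81 (1.74 to 1.88) in mouse A at 150 and 300 cells per µl, and 2.20 (2.04 to 2.39) and 2.07 (1.97 to 2.17) in human cells. In mouse B it was 1.45 (1.26 to 1.66) and 1.33 (1.26 to 1.40). For each class the intervals of the 2 libraries overlapped, and the mouse B intervals lay below those of mouse A. The ratio of stathmin to the alpha-tubulin gene was 0.332 (0.295 to 0.373) and 0.216 (0.204 to 0.228) in mouse A. It was 0.158 (0.123 to 0.20) and 0.0686 (0.0602 to 0.0779) in mouse B, and 0.918 (0.861 to 0.979) and 0.493 (0.470 to 0.517) in human cells. These intervals did not meet between the libraries in any class.

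The ratio of HMGB2 to HMGB1 was higher at 300 cells per µl in each class. It was 1.24 (1.14 to 1.34) and 1.86 (1.78 to 1.95) in mouse A, 1.77 (1.52 to 2.06) and 2.19 (2.03 to 2.36) in mouse B, and 0.641 (0.577 to 0.712) and 1.02 (0.941 to 1.10) in human cells. The intervals of the libraries did not meet in mouse A or in human cells and met in mouse B.

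Most cells of mouse A and of the human class held at least 1 UMI of each member. In the library at 300 cells per µl, 84.3% to 97.9% of mouse A cells (median depth 7474 UMIs) and 83.3% to 99.7% of human cells (median depth 3713.5 UMIs) did, with Stmn1 and HMGB2 at the lower ends. Cells of the other species gave a background for each member, and its source was not tested. Mouse members were found in 4.40% (Stmn1) to 17.0% (Hmgb2) of the 318 human cells, and human members in 3.50% (HMGB2) to 10.2% (TUBA1B) of the 685 mouse cells (median depth 7211 UMIs). At 150 cells per µl these shares were 2.3% to 16.1% and 3.53% to 11.8%.

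Mouse B was the class with the fewest stathmin-positive cells. A Stmn1 UMI was found in 39.9% of its 296 cells at 300 cells per µl (exact binomial 95% interval 34.2% to 45.7%, median depth 6587.5 UMIs) and in 62.9% of its 35 cells at 150 cells per µl (44.9% to 78.5%, 13629 UMIs). With cells thinned to a common 2000 UMIs, the share was 16.1% and 26.9% in mouse B, against 59.4% and 68.6% in mouse A. Human UMIs were 0.630% and 0.412% of all UMIs in mouse B cells. In barcodes of 200 to 600 UMIs, Stmn1 made up 270 CPM of mouse UMIs at 300 cells per µl (2053 barcodes), which is above its level in mouse B. The part of free RNA in the mouse B level was not tested.

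The design of the mixture allows the mouse classes to be compared within each library. All 5 mouse members were lower in mouse B than in mouse A by the quasi-likelihood test of edgeR, fitted to the 4 sums of UMIs (class by library) with the library as a block. Of 8928 mouse genes tested, 56.8% had an adjusted p under 0.05 and 29.1% were called higher in mouse A. The count of 5 of 5 is read against these shares. The clusters behind the classes had been set on other genes of the same cells, and the libraries were made from the same lines. With the block, p-values set the class difference against its change between the libraries, with the spread estimated over all genes. They do not cover a spread beyond these 2 libraries.

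Stmn1 was 4.39-fold lower in mouse B (log2 −2.13, SE 0.12, edgeR adjusted p = 4.1e-65), and 7.71% of genes tested had a lower log2 value. The per-library folds were 3.6 (95% interval 2.83 to 4.64) and 4.70 (4.11 to 5.38). Hmgb1 was 2.58-fold lower (log2 −1.37, SE 0.09, edgeR adjusted p = 3.8e-52). Its folds in the libraries at 150 and 300 cells per µl were 3.01 (2.63 to 3.45) and 2.20 (2.05 to 2.37), and these intervals did not meet.

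Hmgb2 was 2.02-fold lower (log2 −1.02, SE 0.08, edgeR adjusted p = 1.5e-38) and Tuba1b 1.63-fold lower (log2 −0.70, SE 0.07, edgeR adjusted p = 2.1e-20). Folds at 150 and 300 cells per µl were 2.10 (1.89 to 2.34) and 1.87 (1.78 to 1.97) for Hmgb2 and 1.71 (1.54 to 1.90) and 1.49 (1.44 to 1.55) for Tuba1b, with overlapping intervals. Tubb5 was 1.19-fold lower (log2 −0.25, SE 0.08, edgeR adjusted p = 0.0064), with 39.5% of genes tested below its log2 value, and its folds were 1.25 (1.10 to 1.43) and 1.10 (1.05 to 1.15). The call for Tubb5 was lost without the block (edgeR adjusted p = 0.49), without the filter on low counts (edgeR adjusted p = 0.13) and with DESeq2 (adjusted p = 0.27). The other 4 genes were called under every alternative run, though Tuba1b only narrowly without the block (edgeR adjusted p = 0.046).

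**Figure D2:**
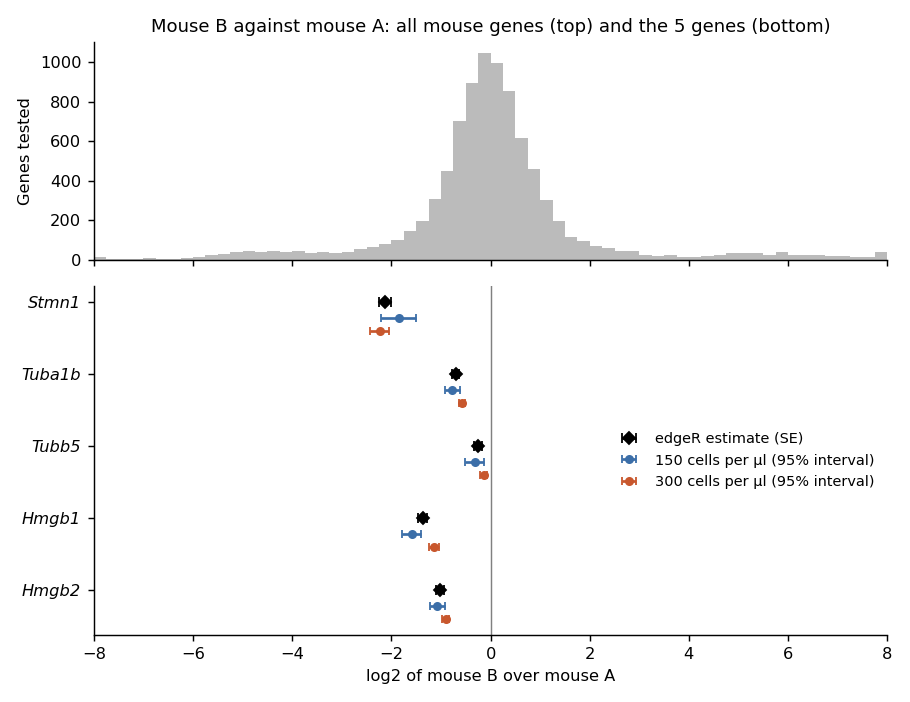
Difference of mouse B from mouse A on a log2 scale. The top panel counts the 8928 genes tested (values beyond 8 are in the outermost bins), and the bottom panel gives the edgeR estimate with its SE and the value of each library with its 95% interval. All 5 genes lie left of 0, from Tubb5 at −0.25 to Stmn1 at −2.13, within the broad spread of the other genes.

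Clusters inside the classes, set without the members, showed how far the levels varied among cells of 1 class. This is a description, since other genes of these cells set the clusters. In mouse B the 2 clusters of full depth differed in every member. At 150 cells per µl cluster 2 (14 cells, median 17939 UMIs) held 1542 CPM of Tuba1b, 994 CPM of Tubb5, 1485 CPM of Hmgb2, 744 CPM of Hmgb1 and 249 CPM of Stmn1. Cluster 4 (13 cells, median 11502 UMIs) held 551, 496, 469, 375 and 82.7 CPM of the same genes. In the other library cluster 2 (120 cells) held 1970, 1440, 1125, 485 and 113 CPM, and cluster 4 (99 cells) held 963, 827, 582, 316 and 71.4 CPM. Intervals of the clusters met for none of the 5 genes in either library. Depth differed with the clusters, and its part was not tested.

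Mouse A varied less and in fewer genes. Cluster 3 at 300 cells per µl (100 cells, median 10594 UMIs) exceeded cluster 1 (246 cells, median 7203.5 UMIs) in Tubb5, with 1636 against 1123 CPM, in Hmgb2, with 2202 against 1483 CPM, and in Tuba1b, with 2714 against 2153 CPM. Hmgb1 stood at 935 and 947 CPM with overlapping intervals. Stmn1 stood at 546 CPM (504 to 589) and 493 CPM (462 to 526), whose intervals also met. The Tubb5 level of cluster 2 in mouse B, 1440 CPM (1376 to 1506), was above that of cluster 1 in mouse A, 1123 CPM (1076 to 1171). For Stmn1 the highest cluster of mouse B in this library was the shallow cluster 5 (77 cells) at 238 CPM (174 to 317), and the lowest cluster of mouse A was the shallow cluster 6 (43 cells) at 401 CPM (260 to 593). These intervals met.

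Among human clusters HMGB2 varied most. At 300 cells per µl it stood at 492 CPM (419 to 574) in cluster 2 (112 cells), 966 CPM (886 to 1052) in cluster 1 (108 cells) and 1208 CPM (1109 to 1315) in cluster 3 (98 cells). At 150 cells per µl the values were 624, 1018 and 1108 CPM in the same order. STMN1 lay between 1786 and 1949 CPM in the 3 clusters at 300 cells per µl, with overlapping intervals.

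The libraries were then compared within each class, to see whether levels changed with the loading concentration. With 1 library at each concentration no test was possible. Values are log2 ratios of CPM at 300 over 150 cells per µl with exact conditional 95% intervals, set beside all genes with at least 100 UMIs. The libraries also differed in depth per cell and in the number of cells, so concentration and library cannot be told apart.

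Stathmin and HMGB1 were lower at 300 cells per µl in all 3 classes, and both tubulins were higher. For stathmin the log2 ratio was −0.31 (−0.47 to −0.15) in mouse A, −0.69 (−1.06 to −0.31) in mouse B and −0.65 (−0.73 to −0.56) in human cells. For HMGB1 it was −0.92 (−1.02 to −0.82), −0.47 (−0.67 to −0.28) and −0.70 (−0.83 to −0.58). In mouse A 1.08% of the 5472 genes lay below Hmgb1 and 13.2% below Stmn1, and in human cells 2.50% of 3845 genes lay below HMGB1 and 3.22% below STMN1. In mouse B 4.45% of 4603 genes lay below Stmn1 and 8.89% below Hmgb1.

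The alpha-tubulin gene gave 0.31 (0.22 to 0.40), 0.51 (0.38 to 0.65) and 0.25 (0.18 to 0.33) in mouse A, mouse B and human cells. The beta-tubulin gene gave 0.44 (0.32 to 0.57), 0.63 (0.47 to 0.79) and 0.34 (0.23 to 0.45). These were not unusual values, as 32.2%, 19.4% and 31.1% of genes lay above the alpha-tubulin gene and 21.7%, 12.9% and 22.5% above the beta-tubulin gene. HMGB2 gave −0.33 (−0.42 to −0.24), −0.16 (−0.31 to −0.02) and −0.03 (−0.17 to 0.11), and the interval in human cells included 0. With TMM scaling the human value was −0.16.

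The median ratio of all genes was 0.14, 0.14 and 0.08. Scaling by TMM lowered every ratio by 0.13, 0.14 and 0.12 in mouse A, mouse B and human cells, and the directions given here held under it. No member exceeded 2-fold in any class, beside 3.76% of genes in mouse A, 4.98% of 4603 genes in mouse B and 1.77% in human cells. Hmgb1 in mouse A passed 2-fold with TMM scaling (log2 −1.05) and with cells weighted equally (log2 −1.07).

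**Figure D3:**
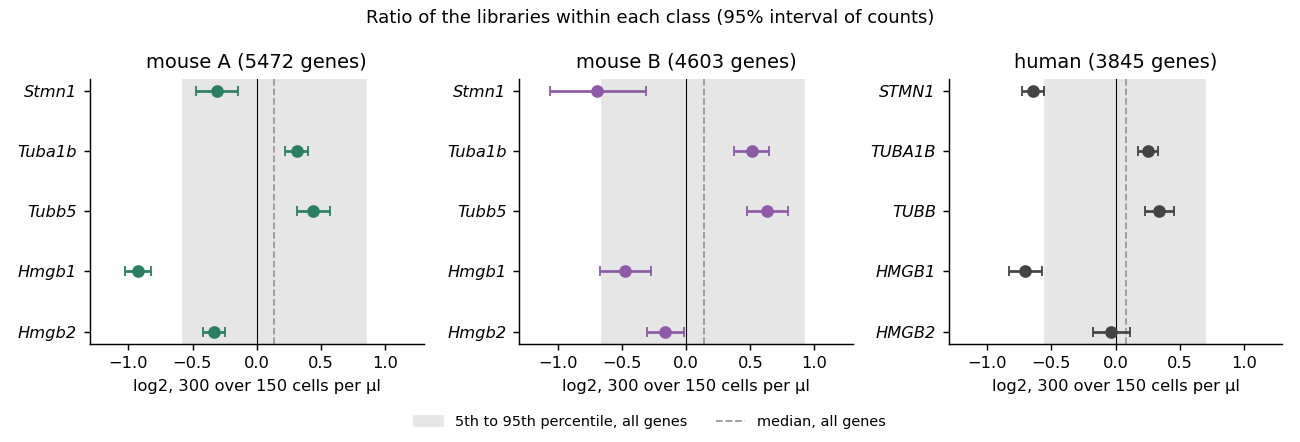
Log2 ratio of CPM at 300 over 150 cells per µl for each gene in each class (horizontal axis), with 95% intervals of the counts. The grey band is the 5th to 95th percentile and the dashed line the median of all genes with at least 100 UMIs. Both tubulin points are right of 0 and the stathmin and HMGB1 points left of it in each panel, with Hmgb1 in mouse A (−0.92), Stmn1 in mouse B (−0.69) and STMN1 and HMGB1 in human cells (−0.65 and −0.70) left of the band.

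Stathmin and HMGB1 were also read in human cells grouped by depth. The human cells of each library were split into 3 groups of equal size by their human UMIs. From the shallowest to the deepest group, STMN1 stood at 3468, 3178 and 2717 CPM at 150 cells per µl and at 1874, 1902 and 1898 CPM at 300 cells per µl. HMGB1 stood at 1654, 1606 and 1379 CPM and at 852, 938 and 919 CPM. The median depths of these groups were 3571, 6383 and 12552 UMIs and 2220.5, 3713.5 and 6351.5 UMIs. Each group at 300 cells per µl had a lower level of both genes than every group at 150 cells per µl, and the part of depth in the library difference was not tested further.

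Cells of 1 class were next compared at a fixed depth of 2000 UMIs of their species, averaged over 10 draws. This left 43 and 341 cells of mouse A, 29 and 234 of mouse B, and 82 and 273 human cells. In 1 draw at 300 cells per µl, TUBA1B ranged from 0 to 21 UMIs per human cell with a median of 7, and Tuba1b from 0 to 17 UMIs per mouse A cell with a median of 4. Stmn1 in mouse B ranged from 0 to 3 with a median of 0. STMN1 in human cells ranged from 0 to 12 with a median of 3.

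Random sampling alone gives a variance equal to the mean. The alpha-tubulin gene and HMGB2 were above this level and above the median gene in each class. At 300 cells per µl their variance over mean was 1.6 and 1.36 in mouse A, 1.81 and 1.72 in mouse B, and 1.79 and 1.57 in human cells, where the medians of the 723, 732 and 721 genes with a mean of at least 0.5 UMIs were 1.09, 1.12 and 1.08. The shares of these genes with a larger ratio were 4.29% and 11.6% in mouse A, 5.46% and 6.01% in mouse B, and 2.77% and 4.44% in human cells. The genes compared were not matched to the members on their mean, and this ratio can rise with the mean. The part of abundance in these shares was not tested. The alpha-tubulin gene and HMGB2 gave 1.31 to 1.91 at 150 cells per µl. With cells thinned to 1000 UMIs, both stood at 1.07 in mouse A of that library, and neither was above the median gene.

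Stathmin had a lower variance over mean, with 1.19 in mouse A, 1.15 in mouse B and 1.16 in human cells at 300 cells per µl. The corresponding values of HMGB1 were 1.19, 1.15 and 1.23. In mouse A the mean of Stmn1 was 0.974 UMIs per cell, against 4.71 for Tuba1b and 3.30 for Hmgb2. These ratios were not compared at equal means. The mean of Stmn1 in mouse B was only 0.188 UMIs per cell, at which such a ratio says little. The beta-tubulin gene gave 1.39, 1.42 and 1.45, which was above HMGB2 in mouse A and below it in mouse B and human cells. STMN1 in human cells thus had a high mean of 3.83 UMIs with a variance close to it, while HMGB2 had a mean of 1.84 UMIs and was found in 76.3% of thinned cells.

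**Figure D4:**
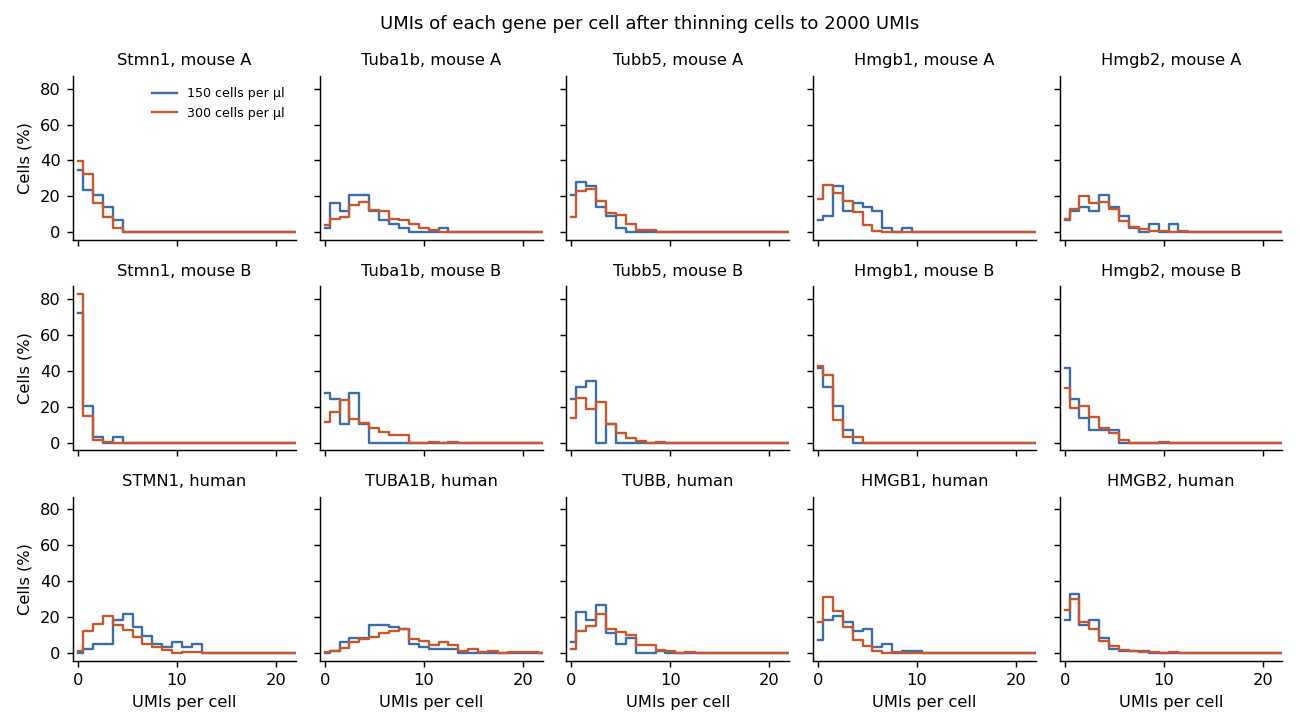
Percent of cells (vertical axis) by the UMIs of a gene per cell (horizontal axis) in 1 draw of 2000 UMIs per cell, by class and library. Stmn1 in mouse B piles up at 0, whereas TUBA1B in human cells at 300 cells per µl spreads from 0 to 21 UMIs.

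Members were then correlated across the thinned cells of a class. The cells of a value share a library and a fixed depth, and at a few UMIs per cell the correlations are small and are given as a description. The alpha- and beta-tubulin genes gave the highest Spearman's rho of the 10 pairs in every class at 300 cells per µl, with 0.287 in mouse A (341 cells), 0.324 in mouse B (234 cells) and 0.283 in human cells (273 cells). In the other library they gave 0.234, 0.308 and 0.111 over 43, 29 and 82 cells and were the highest pair in no class, as Hmgb1 with Hmgb2 gave 0.276 in mouse A, Tuba1b with Hmgb2 gave 0.438 in mouse B and TUBA1B with HMGB2 gave 0.257 in human cells. The mouse A value of 0.234 became −0.064 with cells thinned to 1000 UMIs. Near-identical copies of the tubulin genes can exchange reads, and the part of that in these values was not tested.

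HMGB2 came next. With the alpha-tubulin gene its rho was 0.111 in mouse A, 0.227 in mouse B and 0.204 in human cells at 300 cells per µl, and with the beta-tubulin gene 0.115, 0.168 and 0.216. Stathmin gave 0.026 to 0.145 with the other members over the 3 classes in that library, and −0.159 (with Tubb5 in mouse A) to 0.140 (with Hmgb2 in mouse B) in the library at 150 cells per µl. Hmgb1 gave −0.089 with Tuba1b in mouse A and 0.129 in mouse B, which are both weak.

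**Figure D5:**
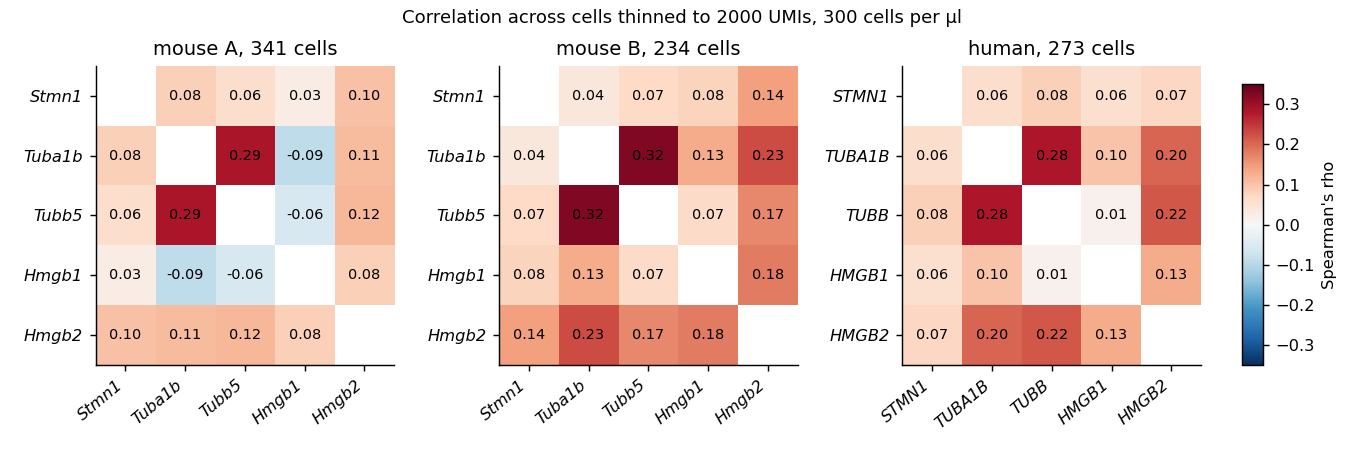
Spearman's rho between the members across cells thinned to 2000 UMIs at 300 cells per µl. Rows and columns are genes and the colour scale runs from −0.35 to 0.35. The tubulin pair is the darkest square in each class (0.29, 0.32 and 0.28), followed by pairs with HMGB2 in mouse B and human cells.

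For each member the 3 genes nearest to it by rho were listed at 300 cells per µl, among the genes found in at least 20% of these cells. In that library the tubulin genes were each other's nearest gene in all 3 classes, of 1819 genes in mouse A, 1850 in mouse B and 1898 in human cells. This did not hold in the library at 150 cells per µl, where the beta-tubulin gene was at rank 3 of 1721 genes for Tuba1b in mouse A, rank 27 of 1762 genes for Tuba1b in mouse B and rank 71 of 1782 genes for TUBA1B. Of 45 such places, 10 were held by members and 35 by 26 other genes. The mouse gene mm10_ENSMUSG00000020914 held 6 of these places. It was second for Tuba1b and Tubb5 in both mouse classes, with rho of 0.232 and 0.238 in mouse A, while both values in mouse B were 0.252. At 150 cells per µl its rho with the same genes was 0.281, 0.260, 0.427 and 0.237. The gene was also second for Hmgb2 in mouse A and for Stmn1 in mouse B, with rho of 0.230 and 0.143. Those values were lower at 150 cells per µl, with 0.149 and 0.069.

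The human gene hg19_ENSG00000131747 held 3 places, as second for TUBA1B (0.258), TUBB (0.230) and HMGB2 (0.297), with 0.168, 0.171 and 0.187 at 150 cells per µl. Both identifiers were singled out after their values were seen. The genes nearest to stathmin had a low rho in every class. In mouse B the 3 genes gave 0.145, 0.143 and 0.142 at 300 cells per µl. Their values at 150 cells per µl were 0.140, 0.069 and 0.006. In mouse A the first gave 0.170 at 300 and −0.074 at 150 cells per µl. The one at rank 2 gave 0.144 and −0.016, and the one at rank 3 gave 0.124 and 0.083. In human cells the first gave 0.137 and −0.056, the one at rank 2 gave 0.133 and 0.091, and the one at rank 3 gave 0.131 and −0.056.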

How the data were processed

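For each library the authors deposited a gene by barcode matrix of UMI counts, as whole numbers without normalization. The methods state that reads were downsampled by a factor set for each library, aligned to joint human (hg19) and mouse (mm10) references by STAR and counted by the Drop-seq tools. The submitters' processing notes list STAR 2.4.2a and Cell Ranger 1.2.0, and in the paper the latter name and number belong to the joint reference. Whether this downsampling precedes the deposited counts is not given in the sources used here.

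The members and lists were chosen with earlier results of these data known. Of the 29259 identifiers, 0 could be paired with a symbol through the reference table, so marker, S phase and mitosis lists planned for this work were not applied, and no sequence or coordinate is printed. Names of the 10 members came from the definition of the set. The planned clustering was to leave out further genes of these lists, and here only the members were left out.

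Mouse and human cells were clustered over both libraries from the 2000 most variable genes found in at least 10 cells (counts scaled to 10000 per cell, 15 principal components, 15 neighbours, Leiden resolution 0.5, leidenalg 0.10.2, Python 3.11.15). The 6 mouse clusters were joined into 2 classes by average linkage. Summed profiles correlated at 0.78 to 0.98 within and 0.53 to 0.70 between classes. The first principal component, found without the members, placed 770 of 770 cells alike. No doublet caller was run, and mixed barcodes were left out.

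Class sums were compared with edgeR 4.0.16 (R 4.3.3, TMM, filterByExpr, Benjamini-Hochberg adjustment over all genes at 0.05), with DESeq2 1.42.0 as an alternative. SEs were taken from the log2 fold change and the F statistic. Poisson, binomial (Clopper-Pearson) and conditional binomial intervals are exact at 95% and cover counting error only. Scripts were tested on simulated data. Genes named were the 10 members and, for each, its 3 nearest genes by Spearman's rho at 300 cells per µl, printed by identifier for at most 2 genes. Reads of near-identical tubulin and HMGB copies or pseudogenes may have been counted elsewhere or dropped, so these levels are uncertain to that extent.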

Additional observations from a re-analysis of the deposited data

Results flagged for a closer look

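Human-rich barcodes of at least 300 and under 1000 UMIs, with at least 50% human UMIs, lay outside the cells compared in the report. They held UMIs of each human member. At 150 cells per µl (51 barcodes, median 528 UMIs) STMN1 stood at 2385 CPM of human UMIs (50 UMIs), TUBA1B at 2051 CPM (43 UMIs), TUBB at 811 CPM (17 UMIs), HMGB1 at 1097 CPM (23 UMIs) and HMGB2 at 763 CPM (16 UMIs). At 300 cells per µl (82 barcodes, median 618.5 UMIs) the values were 920 CPM for STMN1 (37 UMIs), 2088 CPM for TUBA1B (84 UMIs), 1168 CPM for TUBB (47 UMIs), 423 CPM for HMGB1 (17 UMIs) and 696 CPM for HMGB2 (28 UMIs). Those of at least 500 UMIs and sufficient purity enter the alternative with that minimum, and those of 200 to 600 UMIs are among the barcodes whose Stmn1 level is given in the report. These barcodes also carried mouse UMIs, and which cells or free RNA they hold was not tested.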

How the results depend on the processing

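No paired analysis beyond the library block was possible because each concentration had 1 library, and leaving out a library would leave 1 sum per class, so values per library are given in the report in its place. Between the mouse classes 5074 genes were called with the block, 3501 with no replicate block, 5567 without the filter on low counts (which shifted the median log2 of all genes to 0.16), 5168 with size factors and 1939 with DESeq2, and 4 or 5 of the 5 members were called under each of these. All 5 kept their direction under the 6 alternatives run, and Tubb5 lost its call under 3 of them. One alternative, the classes from the first principal component, placed every mouse cell alike. Its values equal those of the reported fit, so it is no separate check. Calls in mouse A and mouse B numbered 2596 and 2478 in the reported fit and 2420 and 3147 without the filter. Levels moved by a factor of 0.979 to 1.03 with a purity of 95%, of 0.988 to 1.03 with cells of at least 500 UMIs and of 0.992 to 1.02 with cells of at least 2000 UMIs. With cells weighted equally the factor was 0.803 to 1.08, and the summed level of the members moved outside its counting interval in mouse A at 300 cells per µl (6680 CPM) and in mouse B (3212 and 3842 CPM). Members past 2-fold between the libraries in mouse A numbered 1 with TMM scaling and 1 with cells weighted equally, against 0. At 1000 UMIs per cell in place of 2000, fewer members had a variance over mean above the median gene. They numbered 2 in mouse A at 150 cells per µl, against 5. In mouse B and in human cells at 300 cells per µl they numbered 3 and 3, against 5 in each. At 1000 UMIs rho between Tuba1b and Tubb5 in mouse A at 300 cells per µl was 0.174. The cause of these shifts was not tested. Depth limits Stmn1 in mouse B at 150 cells per µl, with 81 UMIs in all.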

Other observations

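Mixed barcodes of at least 1000 UMIs held members of both species. At 300 cells per µl (121 barcodes, median 1241 UMIs) TUBA1B stood at 2768 CPM of human UMIs (289 UMIs) and Tuba1b at 1281 CPM of mouse UMIs (163 UMIs). STMN1 stood at 1983 CPM (207 UMIs) and Stmn1 at 346 CPM (44 UMIs), the latter between the levels of mouse A and mouse B.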
